A study of Homo sapiens with 11 samples.

Results

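The expression of 10 human genes that set or read out the epithelial and mesenchymal state of a carcinoma cell was followed in 2 prostate cancer cell lines, PC3 and DU145, with and without stable overexpression of the sialyltransferase ST6GAL1. The 10 genes were taken by name from the 28395 genes of the deposited read counts, and all 10 were present: the classical cadherins CDH1, CDH2 and CDH3, the intermediate filament gene VIM, the mesenchymal transcription factors ZEB1, SNAI2 and TWIST1, and the epithelial regulators ESRP1, GRHL2 and OVOL1. PC3 cells are a line from a skeletal metastasis of prostate cancer, and DU145 cells are another metastatic human prostate cancer line. The groups were PC3 cells carrying the lentiviral open reading frame negative control (3 libraries), PC3 cells with lentiviral ST6GAL1 (3 libraries), DU145 cells with the negative control (3 libraries) and DU145 cells with ST6GAL1 (2 libraries, biological repeats 2 and 3). All 4 cultures had therefore gone through lentiviral transduction, and it is not stated whether the stable lines were clones or pools, so that a difference between a control and an overexpressing line may also include a difference between the lines as they were established. The repeats are labelled as biological, but whether they came from separate transductions is not stated. The DU145 and PC3 libraries were also counted into separate tables, so line and batch cannot be told apart.

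Epithelial to mesenchymal transition (EMT) is the programme by which epithelial cells loosen their junctions, lose apical and basal polarity and become motile. E-cadherin (CDH1) joins epithelial cells to one another and is anchored to actin through catenins, whereas N-cadherin (CDH2) is typical of mesenchymal and neural cells, and the exchange of the former for the latter is called the cadherin switch. P-cadherin (CDH3) is found in basal cells of stratified and glandular epithelia, including the prostate. ZEB1, SNAI2 (also known as Slug) and TWIST1 are transcription factors that promote EMT, and ZEB1 and SNAI2 repress CDH1 and other junction genes by binding E-box motifs in their promoters. GRHL2 activates epithelial junction genes and opposes ZEB1, OVOL1 represses EMT genes, and ESRP1 is an RNA-binding protein that enforces the epithelial pattern of splicing.

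Total counts per library ranged from 13194485 to 18201359, so that 3 counts in 1 library, used as the limit of detection, corresponded to between 0.165 and 0.227 CPM (counts of a gene scaled to a common library total). The overexpressed gene followed its labels: ST6GAL1 measured 2.97, 2.09 and 3.06 normalised CPM in the PC3 controls against 33.3, 31.7 and 32.6 in the overexpressing PC3 libraries (log2 fold change 3.58 ± 0.10 SE, edgeR adjusted p = 1.37e-28), and 14.3, 13.1 and 11.4 in the DU145 controls against 346.4 and 298.5 (4.65 ± 0.10, edgeR adjusted p = 1.48e-11). All 8 epithelial markers, CDH1 among them, were above the limit of detection in all 4 groups, with summed levels of 1284 to 1337 CPM in PC3 and 1834 to 2211 CPM in DU145. The fibroblast markers COL1A2, DCN, LUM and FAP, the leukocyte markers CD3E, LYZ and CSF1R and the endothelial markers CDH5, CLDN5 and EMCN were at or under the limit of detection in every group. The prostate luminal markers KLK2 and KLK3 were also at or under it in every group, and TMPRSS2, FOLH1 and HOXB13 were so in DU145. Other markers were above the limit. In PC3 controls these were 4 of 8 fibroblast, 3 of 7 leukocyte and 5 of 8 endothelial markers, and in DU145 controls 2, 3 and 1. Among them were COL1A1 (25.5 CPM), KDR (7.44) and PECAM1 (6.48) in PC3 controls. CD68 measured 21.1 CPM in PC3 controls and 57.0 in DU145 controls, most of the leukocyte sum. The pair of overexpressing DU145 libraries differed more from each other than any other replicates did (chi-square per degree of freedom 12.6, against 1.37 to 5.21 within the other groups).

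In PC3 cells with ST6GAL1 overexpression, the epithelial genes CDH1, CDH3, ESRP1 and GRHL2 were all higher, whereas the N-cadherin, vimentin, ZEB1 and TWIST1 transcripts stayed within 0.2 log2 units of the controls. A gene was called when its edgeR adjusted p was under 0.05 and its absolute log2 fold change over 0.58. Of the 10 genes, 9 passed the filter on low counts in PC3 and 4 of these were called, all of them higher, where 5.38% of the 13544 genes tested were called, 3.61% higher and 1.76% lower. GRHL2, 1 of the 4, passed the filter on its overexpressing libraries alone, so its call came in part with the filter. The control and overexpressing libraries did not overlap for 7 of the 9, against 46.1% of all genes tested.

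CDH1 measured 8.84, 8.98 and 9.65 normalised CPM in the PC3 controls and 24.3, 23.8 and 23.0 in the overexpressing libraries. The groups did not overlap, and the difference was 1.37 ± 0.08 (log2 fold change ± SE, edgeR adjusted p = 7.85e-18). In bulk cultures such as these, a larger share of cells that express the gene and more transcript per cell cannot be told apart. CDH3 measured 6.55, 5.44 and 6.06 CPM in the controls and 22.9, 22.8 and 21.96 CPM with overexpression. All overexpressing libraries lay above all controls, by 1.90 ± 0.09 on the log2 scale (edgeR adjusted p = 6.47e-21). CDH2 measured 335.5, 310.2 and 326.4 CPM in the controls and 316.2, 308.0 and 308.7 CPM with overexpression. The CDH2 groups overlapped, and the difference of -0.06 ± 0.03 did not pass the test (edgeR adjusted p = 0.0954). N-cadherin transcripts thus remained above those of CDH1 and CDH3 in both PC3 cultures. Per kb of exon, CDH2 made up 93.9% ± 0.147 (SD, n = 3) of the summed level of CDH1, CDH2 and CDH3 in the controls and 83.0% ± 0.273 (n = 3) in the overexpressing cells, while the share of CDH1 was 3.75% ± 0.221 and 8.93% ± 0.153 and that of CDH3 was 2.34% ± 0.126 and 8.07% ± 0.130.

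ESRP1, the splicing regulator, measured 2.01, 2.21 and 2.15 CPM in the PC3 controls and 8.98, 8.71 and 9.21 CPM with overexpression. No library of one group reached the other, and the log2 fold change was 2.07 ± 0.14 (edgeR adjusted p = 1.73e-15). GRHL2, the activator of junction genes, had 5, 8 and 17 counts in the controls and 70, 95 and 87 counts with overexpression. The control libraries differed from one another by more than the overexpressing ones, but all 3 remained below every overexpressing library. The log2 fold change of GRHL2 was 3.06 ± 0.25 (edgeR adjusted p = 2.70e-13), and it was 3.72 without control replicate 3, which held the 17 counts. OVOL1 had 1, 1 and 3 counts in the controls and 9, 10 and 11 counts with overexpression, too few to pass the filter. The ratio of the summed OVOL1 counts, 30 against 5 and scaled by library size, was 6.04 (exact 95% interval 2.32 to 19.9, which covers counting error only).

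Among the mesenchymal genes in PC3, VIM and SNAI2 passed the p threshold but not the fold threshold, which 37.3% of all genes tested passed on p alone. VIM measured 1211, 1181 and 1175 CPM in the controls and 1302, 1313 and 1303 CPM with overexpression. Its groups did not overlap, and the difference was 0.14 ± 0.02 (edgeR adjusted p = 5.59e-06). SNAI2 measured 10.9, 9.93 and 11.5 CPM in the controls and 9.11, 6.78 and 8.65 CPM with overexpression. All 3 overexpressing libraries lay below the controls, by -0.41 ± 0.11 (edgeR adjusted p = 0.00235), and the adjusted p was 0.0627 without overexpressing replicate 2, the lowest library. ZEB1 measured 35.9, 37.5 and 38.0 CPM in the controls and 36.6, 36.2 and 33.3 CPM with overexpression, with overlapping groups (-0.07 ± 0.06, edgeR adjusted p = 0.361). TWIST1 measured 12.3, 11.3 and 11.5 CPM in the controls and 14.8, 12.6 and 12.8 CPM with overexpression, without overlap, and the difference of 0.19 ± 0.09 did not pass the test (edgeR adjusted p = 0.0992). The antisense transcripts VIM-AS1 and ZEB1-AS1 overlap their genes, with at most 93 and 116 counts in any library, and whether reads were counted by strand is not stated.

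**Figure D1:**
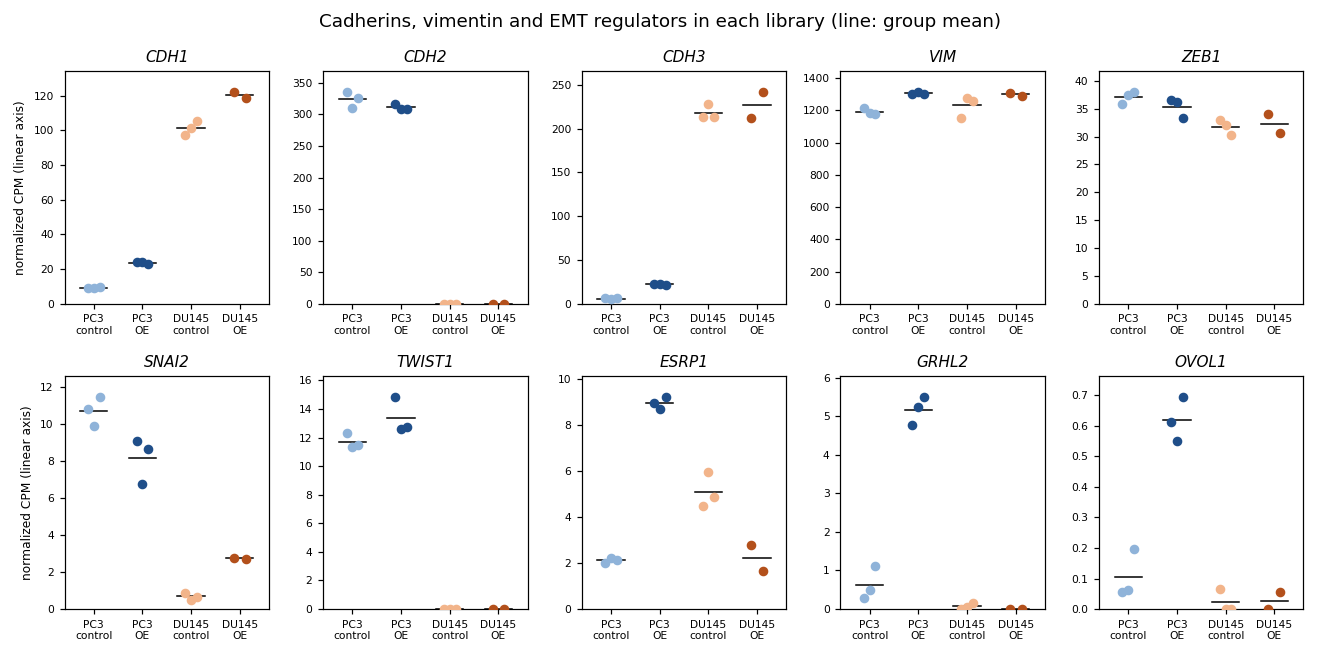
Normalised CPM (linear axes from 0) of the 10 genes in each of the 11 libraries, by line and by control or ST6GAL1 overexpression (OE), with the group mean as a line. In PC3 the CDH1, CDH3, ESRP1, GRHL2 and OVOL1 points with overexpression lie above all control points, and CDH2 and TWIST1 are at 0 in the 5 DU145 libraries.

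DU145 cells began from a different state. In the comparison of the control cells of both lines, 6 of the 8 genes tested were called, where 64.6% of all 14246 genes were called, so that the share was near the background. Of the 6, 3 were higher in DU145 (31.8% of all genes) and 3 lower (32.8%). CDH2 and TWIST1, among the 3 lower, passed the filter on their PC3 counts alone, so for them passing it already required a difference. E-cadherin and P-cadherin transcripts were higher in DU145: CDH1 measured 97.2, 101.1 and 105.1 CPM and CDH3 212.7, 228.4 and 213.7 CPM in the DU145 controls, higher than in the PC3 controls by 3.47 ± 0.07 and 5.18 ± 0.07 on the log2 scale (edgeR adjusted p = 8.95e-26 and 1.59e-29). CDH2 and TWIST1 had 0 counts in all 5 DU145 libraries. Against 3 counts per library, the lowest PC3 control was at least 1383-fold higher for CDH2 and at least 50.5-fold higher for TWIST1. SNAI2 was lower in DU145 controls by -3.97 ± 0.19 (edgeR adjusted p = 3.36e-17) and ESRP1 was higher by 1.27 ± 0.18 (edgeR adjusted p = 1.84e-07).

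VIM and ZEB1, by contrast, were at similar levels in both lines, and neither was called between them. VIM measured 1154, 1279 and 1260 CPM in the DU145 controls, which overlapped the PC3 controls (0.05 ± 0.05, edgeR adjusted p = 0.311). ZEB1 measured 33.0, 32.1 and 30.3 CPM, all below the PC3 controls, by -0.22 ± 0.06 (edgeR adjusted p = 0.00299). GRHL2 had 0, 1 and 2 counts in the DU145 controls against 30 in the 3 PC3 controls together, a ratio of 9.03 (exact 95% interval 2.81 to 46.3). OVOL1 had 1, 0 and 0 counts in the DU145 controls, and neither gene passed the filter there. DU145 thus combined the higher CDH1 and CDH3 levels with GRHL2 and OVOL1 at or under the limit of detection. OVOL1 was so in the PC3 controls too, with 1, 1 and 3 counts. Relatives were higher in DU145 than in PC3 controls: GRHL1 (14.6 against 6.20 CPM), GRHL3 (1.33 against 0.126) and OVOL2 (0.787 against 0.125). ESRP2 was lower (27.8 against 90.4). Of 15 other epithelial regulators tested between the lines, 6 were called higher and 9 lower in DU145, where 31.8% of all genes tested were called higher and 32.8% lower.

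The promoter of CDH2 is shown because CDH2 had the largest difference between the lines of the 10 genes, from at least 310.2 CPM in the PC3 controls to 0 counts. CDH2 lies on chromosome 18, at 27932879 to 28177130 on the minus strand of GRCh38.p14, and the 250 bases upstream of its start (chr18:28177131-28177380, RefSeq, written 5′ to 3′ on the strand of the gene) contain 17 CpG dinucleotides, against a median of 11 over the 35116 promoters of that length in the reference table. The E-box letters CACCTG and CAGGTG, each the reverse complement of the other, do not occur in it, so it is printed without capitals.
CDH2: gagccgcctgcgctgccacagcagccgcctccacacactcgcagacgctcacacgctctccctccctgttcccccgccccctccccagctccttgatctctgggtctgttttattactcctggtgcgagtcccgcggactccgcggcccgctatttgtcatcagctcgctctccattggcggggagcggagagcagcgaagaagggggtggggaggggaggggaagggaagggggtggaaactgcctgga

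With ST6GAL1 overexpression in DU145 cells, SNAI2 was higher and ESRP1 was lower, and the cadherins were not called. Of the 6 genes tested, these 2 were called, where 8.94% of the 13676 genes tested were called (4.33% higher and 4.61% lower). The groups did not overlap for 4 of the 6, against 48.4% of all genes tested. SNAI2 had 13, 8 and 9 counts in the controls (0.859, 0.507 and 0.673 CPM) and 43 and 49 counts with overexpression (2.77 and 2.73 CPM). Both overexpressing libraries lay above all controls, by 2.01 ± 0.30 (edgeR adjusted p = 0.000282), and remained below every PC3 library. ESRP1 measured 4.49, 5.96 and 4.86 CPM in the controls and 2.77 and 1.67 CPM with overexpression. The groups did not overlap, and the difference was -1.21 ± 0.24 (edgeR adjusted p = 0.00263).

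CDH1 measured 97.2 to 105.1 CPM in the DU145 controls and 122.1 and 118.7 CPM with overexpression. Both overexpressing libraries were above the controls, by 0.26 ± 0.07, which passed the p threshold (edgeR adjusted p = 0.0258), as did 20.1% of all genes tested, but not the fold threshold. It no longer passed without any of control replicates 1, 2 and 3 or overexpressing replicate 2 (adjusted p from 0.0508 to 0.170). CDH3 measured 211.6 and 241.8 CPM with overexpression, on either side of the controls (0.06 ± 0.08, edgeR adjusted p = 0.632). VIM measured 1308 and 1288 CPM, just above the highest control (0.08 ± 0.08, edgeR adjusted p = 0.523). ZEB1 measured 34.0 and 30.6 CPM, again around the control values (0.03 ± 0.10, edgeR adjusted p = 0.870). GRHL2 had 0 counts in both overexpressing DU145 libraries and OVOL1 had 0 and 1.

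**Figure D2:**
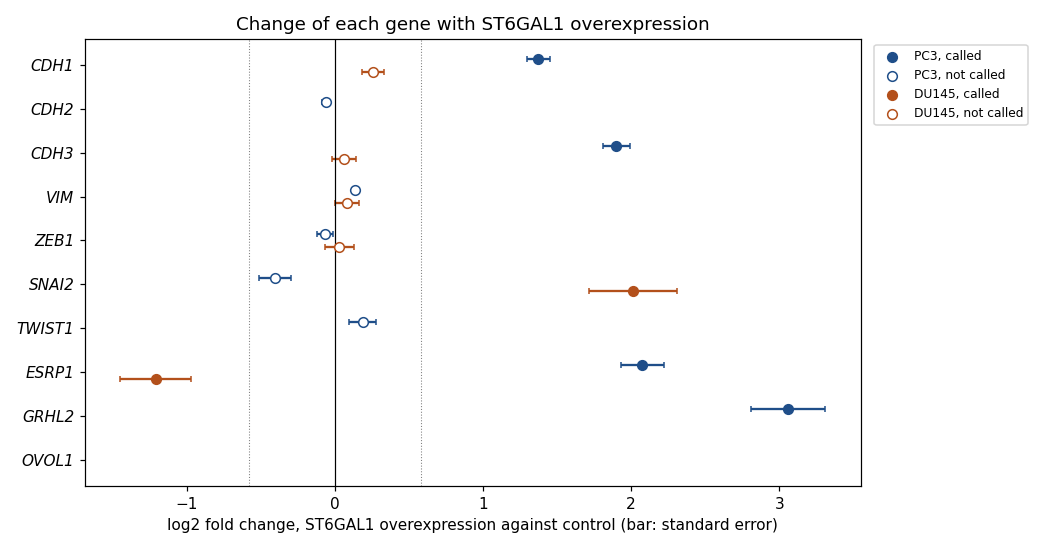
Log2 fold change of each gene with ST6GAL1 overexpression (bars, standard error) in PC3 (blue) and DU145 (orange), filled where called, with dotted lines at 0.58 on either side of 0. ESRP1 lies at 2.07 in PC3 and at -1.21 in DU145, SNAI2 at -0.41 and 2.01, and genes that failed the filter in a line have no point.

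The changes themselves were compared between the lines for the 6 genes above the limit of detection in both. For 4 of these the change differed (edgeR interaction term, adjusted p under 0.05), where 19.7% of the 14952 genes tested differed, 10.4% with the higher change in DU145 and 9.36% with the higher change in PC3. The difference, DU145 minus PC3, was -3.30 ± 0.26 for ESRP1 (edgeR adjusted p = 2.73e-08), which was higher with overexpression in PC3 and lower in DU145. For SNAI2 it was 2.41 ± 0.30 (edgeR adjusted p = 9.85e-06), for CDH3 -1.84 ± 0.11 (edgeR adjusted p = 8.62e-10) and for CDH1 -1.12 ± 0.09 (edgeR adjusted p = 6.71e-08). The differences for VIM (-0.06, edgeR adjusted p = 0.612) and ZEB1 (0.09, edgeR adjusted p = 0.589) did not pass the test. ESRP1 and SNAI2 therefore ended in different orders within the same line: per kb of exon, ESRP1 (1.05 normalised CPM per kb) was above SNAI2 (0.207) in DU145 controls, and SNAI2 (0.839) was above ESRP1 (0.456) in overexpressing DU145 cells, with no overlap between the genes in either group. ST6GAL1 itself reached 32.5 CPM in overexpressing PC3 cells and 322 CPM in overexpressing DU145 cells. On leaving out each library, its log2 change was larger in DU145 by 0.937 to 1.21. The part of this difference in ST6GAL1 level in the differing changes was not tested.

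Ordered by level per kb of exon, VIM was the highest of the 10 genes in all 4 groups, at 230 ± 3.73 (SD, n = 3) and 252 ± 1.205 (n = 3) CPM per kb in PC3 controls and overexpressing cells and at 238 ± 12.99 (n = 3) and 251 ± 2.82 (n = 2) in DU145. In PC3 controls the order went on through CDH2 (37.8), TWIST1 (5.86), ZEB1 (4.29), SNAI2 (3.28), CDH1 (1.51), CDH3 (0.941), ESRP1 (0.436), GRHL2 (0.104) and OVOL1 (0.0276), and only GRHL2 and OVOL1 overlapped as neighbours. In overexpressing PC3 cells CDH1 (3.90) and CDH3 (3.52) came before SNAI2 (2.49), and CDH1 overlapped ZEB1 (4.09). In both DU145 groups CDH3 and CDH1 followed VIM, at 34.1 and 16.6 CPM per kb in the controls and at 35.5 and 19.8 with overexpression, and ZEB1 came next at 3.67 and 3.74. These levels rest on all annotated exons of each gene, and the transcripts actually present were not resolved.

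**Figure D3:**
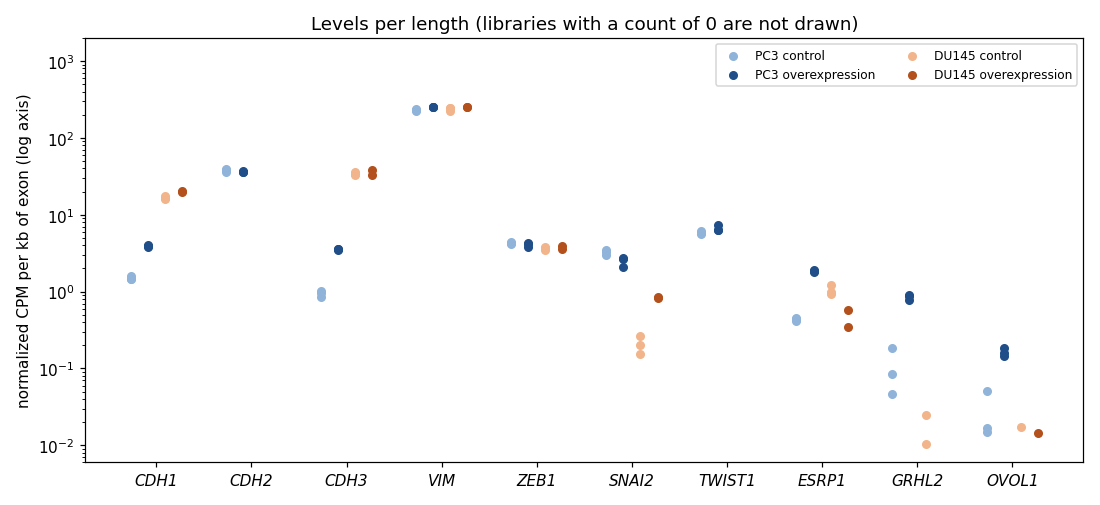
Normalised CPM per kb of exon (log axis) of the 10 genes in each library, coloured by line and treatment, with counts of 0 left out. VIM lies between 223 and 254 in every library, while CDH2 and TWIST1 have points in PC3 alone.

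CDH3 and CDH1 are neighbours on chromosome 16 (CDH3 at 68645310 to 68733771, CDH1 at 68737292 to 68835537, plus strand, GRCh38.p14), separated by 3521 bases. Among the 50 tested genes nearest to CDH3, 25 on either side, the median log2 fold change in PC3 was -0.02, and CDH1 was the 1 gene called higher. The same held for CDH1, where CDH3 was the 1 neighbour called higher (median -0.01). Around ESRP1 and GRHL2, both on chromosome 8, the medians were -0.05 and -0.02, no neighbour reached the change of either gene, and 1 neighbour of ESRP1 (TP53INP1) and 0 neighbours of GRHL2 were called higher. Around SNAI2, also on chromosome 8, the median in DU145 was -0.10 and none of the 50 neighbours reached its change. Some regions leaned in one direction in DU145. With CDH2 itself at 0 counts on chromosome 18, 48 of its 50 tested neighbours, which span 22.7 Mb, had a positive log2 fold change, with a median of 0.39 and 10 called higher. In the other direction, 40 of the 50 neighbours of OVOL1 (median -0.18) and 35 of the 50 of CDH1 and of CDH3 (medians -0.13) had a negative log2 fold change, with 3, 2 and 2 called lower. Over all genes tested in DU145, 4.33% were called higher and 4.61% lower, so these counts of lower calls were near the background. Between the 2 overexpressing libraries the median around OVOL1 had an SD of 0.216, more than its size. The SD was 0.0771 around CDH2, 0.0545 around CDH1 and 0.0484 around CDH3. Copy number was not measured.

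**Figure D4:**
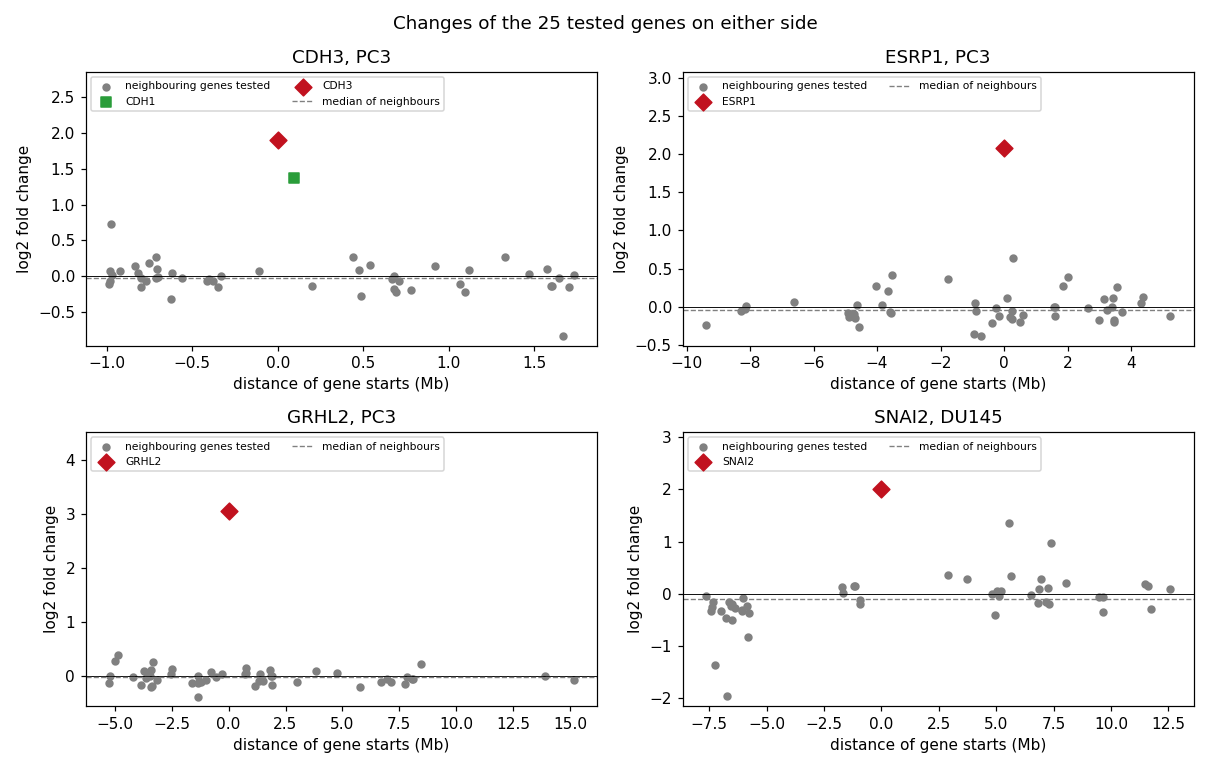
Log2 fold change with ST6GAL1 overexpression of CDH3, ESRP1 and GRHL2 in PC3 and of SNAI2 in DU145 (red diamonds) and of the 25 tested genes on either side (grey), against the distance of gene starts in Mb, with the median of the neighbours dashed. CDH1 (green square, 1.37) is the neighbour of CDH3 with the highest value, and no other neighbour of CDH3 was called higher in PC3.

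The wider families were described through lists of related genes, by their counts and medians beside those of all genes tested (medians of -0.00 in both lines). Over all genes tested, 5.38% were called in PC3 (3.61% higher and 1.76% lower). In DU145 it was 8.94% (4.33% higher and 4.61% lower). Epithelial junction and polarity genes showed the larger count in PC3: of 28 tested, 8 were called higher and 0 lower, with a median log2 fold change of 0.22. MAL2, a protein of apical vesicle transport, was higher from 400 ± 6.48 to 605 ± 12.8 CPM (SD, n = 3 each, 0.60 ± 0.03, edgeR adjusted p = 1.64e-22). ST14, the membrane serine protease matriptase, was higher from 2.60 ± 0.288 to 16.4 ± 1.49 CPM (2.66 ± 0.12, edgeR adjusted p = 1.58e-21). CLDN7, a tight junction claudin, was higher from 1.25 ± 0.116 to 4.43 ± 0.896 CPM (1.82 ± 0.21, edgeR adjusted p = 2.09e-09). The other 5 were PRSS8, AP1M2, CRB3, TJP3 and MYO5B. PRSS8, AP1M2, CRB3 and TJP3 had 1 to 3, 5 to 13, 5 to 12 and 9 to 12 counts per control library. They passed the filter only with their overexpressing libraries, so their calls came in part with the filter. In DU145 the same list had a median of -0.26, with 2 of 28 genes called higher (MAL2 and CLDN4) and 4 called lower (ST14, SPINT1, CGN and LSR). ST14 fell there from 15.1 ± 0.515 (n = 3) to 2.84 ± 0.642 CPM (n = 2, -2.39 ± 0.17, edgeR adjusted p = 4.21e-07), and SPINT1, which encodes an inhibitor of matriptase, fell from 48.7 ± 0.318 to 21.5 ± 2.38 CPM (-1.17 ± 0.10, edgeR adjusted p = 2.73e-06). The difference of the ST14 changes between the lines was -5.05 ± 0.19 (edgeR interaction term, adjusted p = 1.80e-12). Of the 29 genes of the list in that fit, 7 had the higher change in DU145 and 22 in PC3. Of these, 5 and 16 passed the interaction test, where 10.4% and 9.36% of all genes tested did. MAL2 rose in both lines (1.67 ± 0.10 in DU145, edgeR adjusted p = 1.12e-07).

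Of the 8 junction genes called higher in PC3, 5 had a promoter in the reference table, and all 5 contained at least 1 E-box in the 250 bases upstream of a start. With 3 or more E-boxes there were 4 of them (CLDN7, CRB3, AP1M2 and MYO5B), while of all 27305 genes tabulated 20.6% had at least 1 and 0.568% had 3 or more. CRB3 and AP1M2 were among the genes whose calls came in part with the filter. Of the 17 genes of the whole junction list in the table, 10 had at least 1. Of the 10 genes followed here, CDH2, VIM and ZEB1 were in the table, and ZEB1 alone of these had an E-box. The E-box is the motif that ZEB1 and SNAI2 recognise, a match is a description of letters and no evidence of binding, and these promoters were chosen after the values were seen. They are shown 5′ to 3′ on the strand of the gene with the E-box letters CACCTG and CAGGTG in capitals: CLDN7 (chr17:7262479-7262728, minus strand, 4 E-boxes, the richer of 2 starts), CRB3 (chr19:6464021-6464270, plus strand, 5 E-boxes) and AP1M2 (chr19:10587313-10587562, minus strand, 3 E-boxes), all RefSeq on GRCh38.p14.
CLDN7: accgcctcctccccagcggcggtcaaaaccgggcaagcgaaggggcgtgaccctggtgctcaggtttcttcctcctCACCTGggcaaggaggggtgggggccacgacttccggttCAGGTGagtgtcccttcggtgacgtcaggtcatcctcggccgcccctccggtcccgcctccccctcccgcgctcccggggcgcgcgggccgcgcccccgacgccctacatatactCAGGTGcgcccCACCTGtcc
CRB3: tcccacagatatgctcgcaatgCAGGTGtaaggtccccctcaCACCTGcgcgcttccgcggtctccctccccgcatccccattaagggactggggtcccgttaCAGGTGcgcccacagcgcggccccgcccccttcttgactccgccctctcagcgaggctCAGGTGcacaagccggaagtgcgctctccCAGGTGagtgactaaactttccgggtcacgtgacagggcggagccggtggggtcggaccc
AP1M2: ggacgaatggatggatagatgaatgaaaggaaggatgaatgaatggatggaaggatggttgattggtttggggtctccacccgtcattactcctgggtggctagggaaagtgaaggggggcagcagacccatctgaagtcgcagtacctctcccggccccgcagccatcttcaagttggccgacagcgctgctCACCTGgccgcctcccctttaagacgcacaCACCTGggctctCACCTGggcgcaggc

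The mesenchymal list moved in both directions within each line. In PC3, 4 of 28 genes tested were called higher and 1 lower (median 0.09): fibronectin (FN1) from 431 ± 9.70 to 829 ± 21.3 CPM (0.94 ± 0.03, edgeR adjusted p = 2.57e-29), the matrix genes SPARC from 9.34 ± 1.58 to 45.4 ± 4.61 CPM (2.29 ± 0.09, edgeR adjusted p = 2.51e-17) and COL3A1 from 3.84 ± 0.126 to 15.05 ± 2.27 CPM (1.98 ± 0.12, edgeR adjusted p = 1.79e-17), and the collagen cross-linking enzyme LOX (0.61 ± 0.12, edgeR adjusted p = 0.000140), all against TGFBI, a matrix protein induced by TGF-beta, which fell by 1.76 on the log2 scale (edgeR adjusted p = 3.89e-06). The higher CDH1 and CDH3 levels of overexpressing PC3 cells were thus accompanied by higher FN1, SPARC and COL3A1 levels. In DU145, 5 of 30 were called higher and 3 lower (median 0.21). TGFBI rose there from 94.5 ± 3.56 to 311 ± 7.44 CPM (1.72 ± 0.07, edgeR adjusted p = 2.49e-09), tenascin C (TNC) from 69.3 ± 5.34 to 239 ± 12.4 CPM (1.79 ± 0.08, edgeR adjusted p = 6.66e-09) and the hyaluronan receptor CD44 from 137 ± 3.50 to 248 ± 14.3 CPM (0.86 ± 0.07, edgeR adjusted p = 2.36e-06). COL5A1 had 8 to 19 counts in the DU145 controls and 0 in both overexpressing libraries, COL5A2 fell by 0.70 and WNT5B by 0.83 on the log2 scale (edgeR adjusted p = 0.00137, 0.00504 and 0.0175).

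Other EMT transcription factors gave 0 calls among 13 tested in PC3 with edgeR (0 with limma-voom and DESeq2, 8 at an unadjusted p under 0.05, median -0.05). With 5.38% of all genes called, 0 or 1 call among 13 was near the background. Of these 13, 5 had a positive and 8 a negative log2 fold change. On the p threshold alone 3 passed as higher and 1 as lower, where 37.3% of all genes tested passed. SNAI1 measured 3.20 ± 0.348 and 2.40 ± 0.470 CPM (-0.43 ± 0.19, edgeR adjusted p = 0.0786) and ZEB2 2.08 ± 0.631 and 1.69 ± 0.312 CPM in PC3 (-0.28 ± 0.24, edgeR adjusted p = 0.388), and neither passed. In DU145, 3 of 14 were called higher (SOX4, 1.12, SOX9, 0.65, and ID3, 0.66) and 2 lower (FOXC1, -0.89, and PRRX2, -1.46), with edgeR adjusted p from 3.02e-07 to 0.0499 and a list median of -0.06. Of the other epithelial regulators, EHF, an ETS factor of epithelial cells, was the 1 gene of 13 called in PC3, from 9.25 ± 0.749 to 23.2 ± 0.517 CPM (1.33 ± 0.08, edgeR adjusted p = 3.99e-17, list median 0.02). In DU145, 3 of 13 were called higher (SPDEF, 1.45, KLF4, 0.63, and GATA3, 1.77) and 2 lower (list median -0.14). The lower ones were relatives of the genes followed here: ESRP2, which shares the splicing role of ESRP1, went from 27.8 ± 0.963 to 18.5 ± 2.18 CPM (-0.58 ± 0.11, edgeR adjusted p = 0.00214), and OVOL2 from 0.787 ± 0.0877 to 0.232 ± 0.146 CPM (-1.69 ± 0.53, edgeR adjusted p = 0.0380). Counts were low for 2 of these genes in DU145. GATA3 had 3 or 4 per control library and 13 and 16 with overexpression, and OVOL2 had 10 to 14 and then 2 and 6. GATA3 passed the filter only with its overexpressing libraries and OVOL2 only with its controls.

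Among the other classical cadherins, 7 were tested in PC3 and 2 were called higher, CDH12 (0.964 ± 0.185 to 2.76 ± 0.430 CPM, 1.53 ± 0.24, edgeR adjusted p = 2.08e-06) and CDH6 (2.81 ± 0.156 to 4.41 ± 0.678 CPM, 0.65 ± 0.17, edgeR adjusted p = 0.00202), with a list median of -0.05. CDH11, a mesenchymal cadherin of bone-forming cells, measured 700 ± 20.5 CPM in PC3 controls and 630 ± 7.43 CPM with overexpression, a difference of -0.15 that was not called, and had at most 1 count in any DU145 library. In DU145, 2 of this list were tested and 0 were called by edgeR, limma-voom or DESeq2 (1 at an unadjusted p under 0.05). The catenins and adherens junction partners had 0 of 16 calls in PC3 by edgeR (0 by limma-voom and DESeq2, 8 at an unadjusted p under 0.05, median -0.06) and 1 of 14 in DU145 (median -0.01), LIMA1, a linker of the catenin complex to actin, which rose from 139 ± 5.60 to 321 ± 25.2 CPM (1.22 ± 0.08, edgeR adjusted p = 1.55e-07). Both counts were near the shares over all genes tested, 5.38% in PC3 and 8.94% in DU145. Beta-catenin (CTNNB1) measured between 342 and 367 CPM on average in all 4 groups. Alpha-catenin (CTNNA1), which ties the cadherin complex to actin and is known to be lost in PC3, had 16 to 25 counts in the PC3 libraries against 568 ± 6.31 CPM in the DU145 controls. The level in overexpressing PC3 cells, 1.18 ± 0.299 CPM, was 0.208% of that in DU145 controls.

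**Figure D5:**
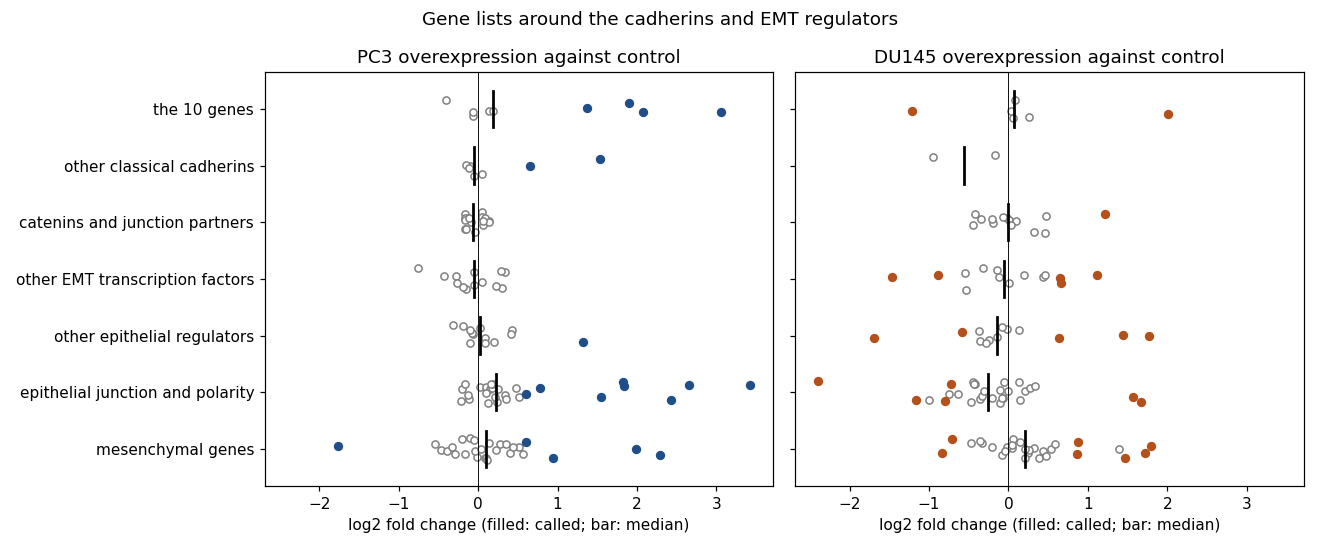
Log2 fold change with ST6GAL1 overexpression of the tested genes of each list in PC3 (left) and DU145 (right), filled where called, with the list median as a bar; COL5A1 in DU145, at 0 counts with overexpression, is not drawn. The junction list holds 8 filled points above 0 in PC3 and 2 above and 4 below 0 in DU145.

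Markers of prostate luminal cells moved with the PC3 result: their summed level was 558 to 603 CPM in PC3 controls and 866 to 892 CPM with overexpression. Of the 7, 5 were above the limit of detection and KLK2 and KLK3 at or under it. Of 5 tested, 3 were called higher, where 3.61% of all genes tested were. The summed level of fibroblast markers was 29.5 to 31.5 CPM in PC3 controls and 31.1 to 36.6 CPM with overexpression, with 4 of 8 at or under the limit, and COL3A1 belongs to both that list and the mesenchymal list. In DU145 the summed fibroblast markers were 5.28 to 7.40 CPM in controls and 3.87 to 7.14 CPM with overexpression, and the luminal markers 22.9 to 25.2 and 26.1 to 28.2 CPM. Leukocyte markers summed to 20.1 to 22.4 and 20.8 to 22.3 CPM in PC3 and to 56.5 to 62.2 and 54.5 to 57.6 CPM in DU145, with 4 or 5 of 7 at or under the limit. Endothelial markers summed to 16.4 to 17.8 and 13.5 to 14.9 CPM in PC3 and to 0.571 to 0.822 and 0.967 to 2.12 CPM in DU145, without overlap in either line. In PC3, 3 were tested and 1 was called lower (TIE1, from 2.49 to 0.888 CPM), where 1.76% of all genes tested were. In DU145, 1 marker was tested and called higher (PECAM1, 1.63 on the log2 scale, edgeR adjusted p = 0.0259), where 4.33% of all genes tested were. The part of these markers in the changes of the cadherins and their regulators was not tested.

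Genes whose levels most resembled those of the genes with the larger changes were named by Pearson's r of log2(CPM + 0.5), as a description in which the points share libraries and groups. For GRHL2 in PC3 (6 libraries, 12830 genes) these were TUBB3, a neuronal beta-tubulin (r = 0.998), and QSOX1, a sulfhydryl oxidase (r = 0.997), and for ESRP1 they were GACAT2 and NEBL (r = 1.00 for both). For SNAI2 in DU145 (5 libraries, 12815 genes) they were LINC00674 and ZNF317 (r = 0.999 for both). With so few libraries such values are common: 650 genes had r over 0.95 with GRHL2, 890 with ESRP1 and 863 with SNAI2.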

How the data were processed

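The study measured messenger RNA of PC3 and DU145 cells in 11 libraries made with a stranded kit. Per its methods and processing notes, the authors trimmed reads with Cutadapt, used HISAT2 for alignment to hg38 and obtained gene totals with featureCounts; versions and the strand setting are not given in the sources used here. The values deposited were raw counts per Entrez gene, 1 table per line. Identifiers were matched to RefSeq symbols (97.7% of 28395).

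Groups came from the sample titles. Each comparison (overexpression in each line, control cells between lines, and their interaction) was fitted with edgeR 4.0.16 in R 4.3.3 on the libraries concerned (filterByExpr, TMM factors, robust quasi-likelihood test), with Benjamini-Hochberg adjustment over all genes tested. The study used limma-voom (limma 3.58.1 here), which was an alternative, as was DESeq2 1.42.0. Calls needed both thresholds given above (0.05 and 0.58), and the interaction p alone. Printed CPM were normalised with TMM factors over the 11 libraries. Per-kb levels used exon lengths of GENCODE on GRCh38. Replicates varied with a biological coefficient of 0.0226 (PC3) and 0.0817 (DU145), so DU145 changes are less precise. The fits were tested on simulated data.

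All 10 genes were named for overexpression in each line and between the control cells, and the interaction was given for the 6 above the limit of detection in both lines. ST6GAL1 was named for overexpression in each line and for the difference of its change between the lines. From each other list, the rule took up to 3 called genes with the smallest adjusted p in each direction and every called gene of a list with 5 or fewer; SNAI1, ZEB2, CDH11, CTNNB1, CTNNA1, single members of the lists and the neighbours were named after their values were seen. The 10 genes and all lists were chosen with earlier results of these data known. Replicate numbers were not taken to pair the samples (correlation of deviations -0.00195, 0.0753 and 0.0608 in PC3, 0.0867 and 0.293 in DU145). The overexpressing DU145 repeat 1 was not analysed here. Some marker genes are not reported here and were left out of the summed marker levels.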

Additional observations from a re-analysis of the deposited data

Results flagged for a closer look

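By the edgeR interaction term, 4 of the 6 genes measurable in both lines changed differently with ST6GAL1 overexpression in PC3 and in DU145, as did the junction gene ST14 and other list genes counted above. ST6GAL1 itself reached a higher level in overexpressing DU145 than in overexpressing PC3 cells, as given above. The values are the log2 change in DU145 minus that in PC3, for ESRP1 (-3.30), ST14 (-5.05), SNAI2 (2.41), CDH3 (-1.84) and CDH1 (-1.12). ESRP1 and ST14 were called higher in PC3 and lower in DU145, SNAI2 was called higher in DU145 alone, and CDH1 and CDH3 were called higher in PC3 alone. The interaction fit included the pair of overexpressing DU145 libraries that differed most from each other, and without either of them the 4 genes other than ST14 still differed.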

How the results depend on the processing

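Over limma-voom, DESeq2, RLE factors, 10 counts required in each library, no filtering at all, a replicate block, 1 fit over all libraries and leaving out each library, 410 of 413 single-gene values kept their direction and call. On leaving out each library in DU145, CDH3 ranged from -0.0332 (without overexpressing replicate 3) to 0.141, and ZEB1 from -0.0605 (without overexpressing replicate 2; -0.0171 without control replicate 3) to 0.109, none past the test. With at least 10 counts required in every library, fewer genes were tested, and of the 10 genes 3 were called in PC3 (GRHL2 was removed), 1 in DU145 (SNAI2 was removed) and 3 between the lines, and 3 differed in their change. With no filter, 5 were called in PC3, OVOL1 being the added gene (2.50, edgeR adjusted p = 0.000631), 2 in DU145 and 7 between the lines, and 4 differed in their change. The called log2 fold changes ranged, on leaving out each library, from 1.346 to 1.41 for CDH1, 1.83 to 1.97 for CDH3, 2.03 to 2.11 for ESRP1 and 2.68 to 3.72 for GRHL2 in PC3, and from 1.81 to 2.21 for SNAI2 and -1.61 to -0.87 for ESRP1 in DU145. VIM in PC3 had an adjusted p of 0.0505 in the fit over all libraries. Without overexpressing DU145 replicate 3 the genes called in DU145 numbered 2072 (1222 with it) and those with a differing change 5161 (2949 with it), the lone overexpressing library being assumed to vary like the controls. CDH2 in PC3, not called with all libraries, had an adjusted p of 0.00955 without control replicate 2 (-0.09).

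Whether equal replicate numbers mark a shared culture or day is not stated, and the correlations of same-numbered libraries did not all pass 0.1, so the replicate block was only an alternative. With it, 4 of the 10 genes were called in PC3, 2 in DU145 and 6 between the lines, and 4 differed between the lines, as without it; over all genes, 740 were called in PC3 (728 without), 1517 in DU145 (1222 without), 9197 between the lines (9205 without), and 3551 changes differed (2949 without). Counts under about 20 per library limit GRHL2 and OVOL1 in PC3 controls, SNAI2 in DU145 controls, and both GRHL2 and OVOL1 in DU145. Among the list genes named, they also limit several, including PRSS8, AP1M2, CRB3, TJP3 and CDH12 in PC3 controls and TGFBI in overexpressing PC3 cells. In DU145 they include GATA3, OVOL2 and COL5A1.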
